A study of Homo sapiens with 9 samples.

Results

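Clone g2_1 is derived from the established Hodgkin lymphoma line L-1236, in which LTA was targeted with Cas9 and a guide against its second exon. It is described here against the vector control, across all 20893 transcript clusters of the Clariom S array that carried IDs of mapped transcript clusters. The comparison holds 6 of the 9 arrays of the study, 3 of g2_1 and 3 of control. The control, called v2 after its lentiCRISPR v2 vector and titled wild type, has no LTA guide according to its labels. A second clone, g3_4, made with a guide against the fourth exon and measured on 3 arrays, is used only to say where g2_1 differs from it. All cells carried the lentiviral Cas9 vector per the labels and grew for 72 h in normal medium with serum before RNA was taken, and the clones had been kept before that in medium conditioned by L-1236 cells. Each knockout is a single clone, so what a guide did and what a clone carried from its founder cell cannot be told apart. Whether the control is a clone, whether it saw conditioned medium and whether the 3 arrays of each group are separate cultures is not given in the sources used here, so p-values rest on a spread between arrays that may be technical.

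LTA encodes lymphotoxin alpha, a cytokine of the TNF superfamily. It is secreted as a homotrimer that binds the TNF receptors, or is held at the membrane by lymphotoxin beta in a heterotrimer that binds the lymphotoxin beta receptor. These receptors signal through TRAF adaptors to the kinases that release NF-kB, a family of transcription factors that switches on cytokines, adhesion molecules and survival genes. Hodgkin and Reed-Sternberg cells, the tumour cells of Hodgkin lymphoma, descend from B cells, have lost much of the B cell programme, and are known for constant NF-kB and JAK-STAT activity and for the cytokines they release.

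Values are log2 signals after RMA, so a difference of 1 is a 2-fold change. A gene is said to have risen or fallen where the adjusted p in limma was under 0.05, and to be called where it also changed at least 2-fold. The median of the 20893 transcript clusters was 6.17 on each g2_1 array and 6.27 to 6.29 for control, and setting all array medians equal moved the median fold change of all transcript clusters by 0.11 (log2). The array numbered 1 of each group had an RNA integrity number of 10, the others 9.5 to 9.6. Control array 1 stood apart. Over the called transcript clusters it differed from the mean of the other 2 control arrays by a median of 0.59, against 0.31 and 0.36 for control arrays 2 and 3 and 0.14 to 0.18 for the g2_1 arrays. It was the highest control array for 505 of the 676 called falls and the lowest for 144 of the 199 called rises. Without it 784 transcript clusters were called, 728 of them among the 875 called with it. The identity of the line was checked against defining genes. Of 5 genes of Hodgkin cells, 3 were high in control and g2_1: TNFRSF8 (CD30) at 11.11 ± 0.18 and 11.89 ± 0.11 (SD, n = 3), and IRF4 at 11.82, 11.76 and 11.92 on the control arrays and 11.94, 12.05 and 12.02 on the g2_1 arrays, and FSCN1 at a mean of 10.96 and 10.62. CCL17 (6.78 and 5.86) and PAX5 (7.31 and 6.52) lay in the middle of the range. Of the genes that define other cells, some lay near the floor of the array in control and g2_1, among them the B cell gene MS4A1 (4.38 and 4.39), the T cell genes CD3D, CD3E and CD3G (4.15 to 4.88), the myeloid gene LYZ (4.24 and 4.18) and the epithelial genes EPCAM and CDH1 (4.19 to 4.32). Others did not: CD2 of T cells was at 7.82 and 9.40, CD79A of B cells at 6.91 and 6.51, COL1A1 and COL1A2 of fibroblasts at 6.65 and 6.69 and at 7.88 and 8.08, and KRT8 of epithelium at 7.53 and 7.36. Of these 5 genes, CD2 differed between the groups and the others did not pass.

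LTA itself was examined first. Its signal was 7.97, 7.53 and 7.11 on the g2_1 arrays and 11.58, 11.07 and 11.08 on the control arrays. All 3 g2_1 arrays were lower than every control array, so the groups did not overlap. They still lay above 6.17, the median of all transcript clusters on each g2_1 array. LTA fell by 3.71 (SE 0.23, limma adjusted p = 1.5e-06), a 13.1-fold difference. An exact permutation test (two-sided, 6 arrays) gave p = 0.1, the lowest possible with 20 splits. In a test with unequal variances the adjusted p was 0.0686. On the g3_4 arrays LTA was at 6.94, 7.25 and 6.61, and the difference between the clones, 0.60, did not pass (adjusted p = 0.985). The probes' position within LTA is not given, so the value does not show how the edited exon was changed. On chromosome 6, the 20 measured genes around LTA had a median log2 fold change of -0.03. Of these, 3 fell and 0 rose, against 8.06% of all transcript clusters that fell and 6.19% that rose. LY6G5C fell by 1.57, ABHD16A fell by 1.33 and AIF1 fell by 0.86. AIF1 no longer passed without g2_1 array 1, 2 or 3 (adjusted p = 0.0512, 0.067 and 0.0606). LTB, the membrane partner of lymphotoxin alpha, was at 6.78, 6.77 and 7.11 in g2_1 and 6.78, 6.71 and 6.53 in control, and its difference of 0.21 did not pass (adjusted p = 0.297).

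Against control, more genes were lost in g2_1 than gained, and the losses were deeper. Of the 20893 transcript clusters, 875 (4.19%) were called, 199 higher (0.952%) and 676 lower (3.24%). On all 875 the 3 g2_1 arrays lay on one side of the 3 control arrays, as they did for 28.4% of all transcript clusters. Without the limit on the fold, 1294 rose (6.19%) and 1685 fell (8.06%). After centring arrays on their median 298 were called higher and 597 lower. The median log2 fold change was -1.74 over the called falls and 1.26 over the called rises. Taken separately in each group, the median level was 7.82 in control and 5.34 in g2_1 for the called falls. For the called rises it was 7.48 and 8.82. Called falls of at least 2 log2 units numbered 266, against 11 rises, and those of at least 5 numbered 23, against 0. For 37 transcript clusters control lay at 8 or more on average and the g2_1 mean lay under 4.65, the first quartile of all transcript clusters, and in 0 the reverse was seen. Of the called falls, 184 (27.2%) ended under that quartile, where a fall is a lower bound set by the floor of the array. Fewer cells with a transcript and less of it per cell cannot be told apart in these bulk samples.

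**Figure D1:**
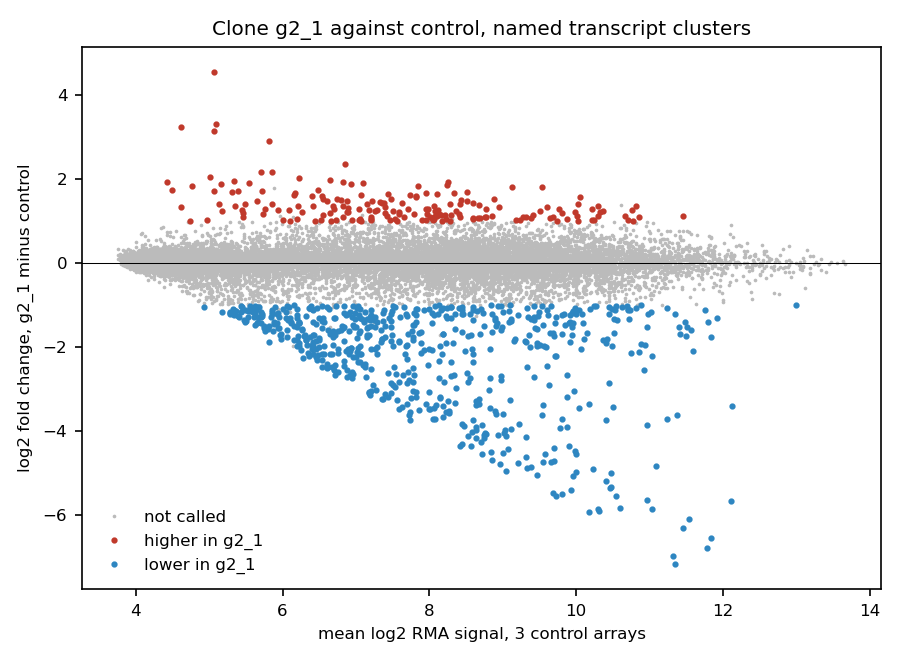
Log2 fold change of clone g2_1 against control (vertical) by the mean log2 signal of the 3 control arrays (horizontal), 1 point for each named transcript cluster, with called rises in red and called falls in blue. The falls follow a slanted lower edge that the floor of the array sets and reach -7.17 (FCER1A), while the largest rise is 4.56 (SPOCK1).

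The largest fall was that of FCER1A, the ligand-binding chain of the high-affinity IgE receptor, which was at 4.44, 4.06 and 4.03 on the g2_1 arrays and at 11.54, 11.01 and 11.49 on the control arrays. SLC16A4, a transporter of the monocarboxylate family, was at 4.25, 4.37 and 4.41 against 11.32, 11.09 and 11.56. SULF1, an enzyme that removes sulfate from heparan sulfate outside the cell, was at 5.3, 4.81 and 4.88 against 12.29, 11.41 and 11.65. Every control array was high in these 3 genes. On the g2_1 arrays FCER1A and SLC16A4 were near the floor, and SULF1 was somewhat above it. The groups did not overlap, which was a condition for the choice of the largest falls and rises. These 3 genes fell, with log2 fold changes of -7.17, -6.98 and -6.79 (SE 0.16, 0.12 and 0.2, limma adjusted p at most 4.4e-09). CCL2, a chemokine that draws monocytes, was at 5.91, 4.87 and 5.1 against 12.33, 11.54 and 11.64. MAOA, the mitochondrial oxidase of serotonin and noradrenaline, was at 5.27, 4.98 and 5.17 against 11.61, 11.43 and 11.32. BASP1, a membrane-bound protein known from growing axons, was at 5.65, 5.38 and 5.31 against 11.68, 11.41 and 11.52. CCL2 was highest on array 1 of both groups, whereas MAOA and BASP1 varied little within a group, and no g2_1 array reached a control array. These fell, with log2 fold changes of -6.54, -6.31 and -6.09 (limma adjusted p at most 4.3e-08).

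The others of the 20 largest falls ranged from 5.33 to 5.93 log2 units. TXNIP, which binds thioredoxin and limits glucose uptake, was at 4.53, 4.27 and 4.44 in g2_1 and 9.51, 10.59 and 10.83 in control, with control array 1 the lowest of its group. CHRNA6, a nicotinic receptor subunit, was at 4.46, 4.44 and 4.45 against 10.76, 10.17 and 9.97. SORL1, a sorting receptor, was at 4.9, 4.58 and 4.85 against 11.27, 10.0 and 10.51. Here the groups did not overlap, and control array 1 was the highest for SORL1 and CHRNA6. The mitochondrial creatine kinase genes CKMT1A and CKMT1B fell, with log2 fold changes of -5.85 and -5.55, but they are near-identical copies, so their probes may read the same transcripts. APBA1, an adaptor of the amyloid precursor protein, fell by 5.64, and PECAM1 (CD31), an adhesion molecule of endothelium and leukocytes, fell by 5.34. CDKN2A, the tumour suppressor that inhibits CDK4 and CDK6, was at 5.31, 5.38 and 4.75 against 10.56, 10.56 and 10.3, and fell by 5.33. The rest of the 20 (RGS2, RGS1, FCER2, IL6, IL13RA1 and CXCL10) are given with their families.

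The rises were smaller than the falls. SPOCK1, a secreted proteoglycan, was at 9.74, 9.37 and 9.76 in g2_1 and 5.51, 4.93 and 4.75 in control. ADA2, a secreted adenosine deaminase, was at 8.84, 7.99 and 8.4 against 4.45, 5.55 and 5.28. ADGRG1 (GPR56), an adhesion receptor known from cytotoxic lymphocytes, was at 8.46, 7.27 and 7.82 against 4.4, 4.54 and 4.88. All 3 were low on every control array and higher on every g2_1 array, by 23.6-fold, 9.96-fold and 9.47-fold (limma adjusted p = 1.2e-07, 2.8e-05 and 8.3e-05). CBR1, a carbonyl reductase, was at 8.26, 8.11 and 8.3 against 4.86, 5.0 and 5.35, with little spread in either group (8.9-fold, adjusted p = 1.1e-07). MS4A4A, a tetraspan protein known from macrophages, was at 8.55, 8.67 and 8.95 against 5.17, 5.78 and 6.5, and PALLD, an actin-binding protein, at 9.23, 9.21 and 9.18 against 6.35, 6.82 and 7.39. For MS4A4A and PALLD the control arrays differed more among themselves than the g2_1 arrays did, and array 1 was the lowest control array.

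The other 9 of the 15 largest rises lay between 1.94 and 2.18 log2 units. They include PIK3CG (the gamma catalytic subunit of phosphoinositide 3-kinase, 2.18), the phospholipid transporter gene ATP8B4 (2.16), the metalloproteinase gene TLL1 (2.06), TMEM98 (2.03), the dopamine receptor gene DRD2 (1.97), the growth factor gene HBEGF (1.95) and LGALS3, a galactoside-binding lectin (1.94). LGALS3 was at 9.02, 8.71 and 8.56 against 6.73, 6.63 and 7.11, and DRD2 at 8.54, 8.72 and 8.61 against 6.24, 6.94 and 6.77. All g2_1 arrays of both genes lay above all control arrays. CD244 and CD160, receptors of NK and T cells, were called too. CD160 was at 10.49, 9.88 and 10.2 against 6.85, 8.86 and 9.04, with control array 1 far below the other 2, and its call was lost without g2_1 array 1 (adjusted p = 0.0662) or g2_1 array 3 (adjusted p = 0.0554).

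**Figure D2:**
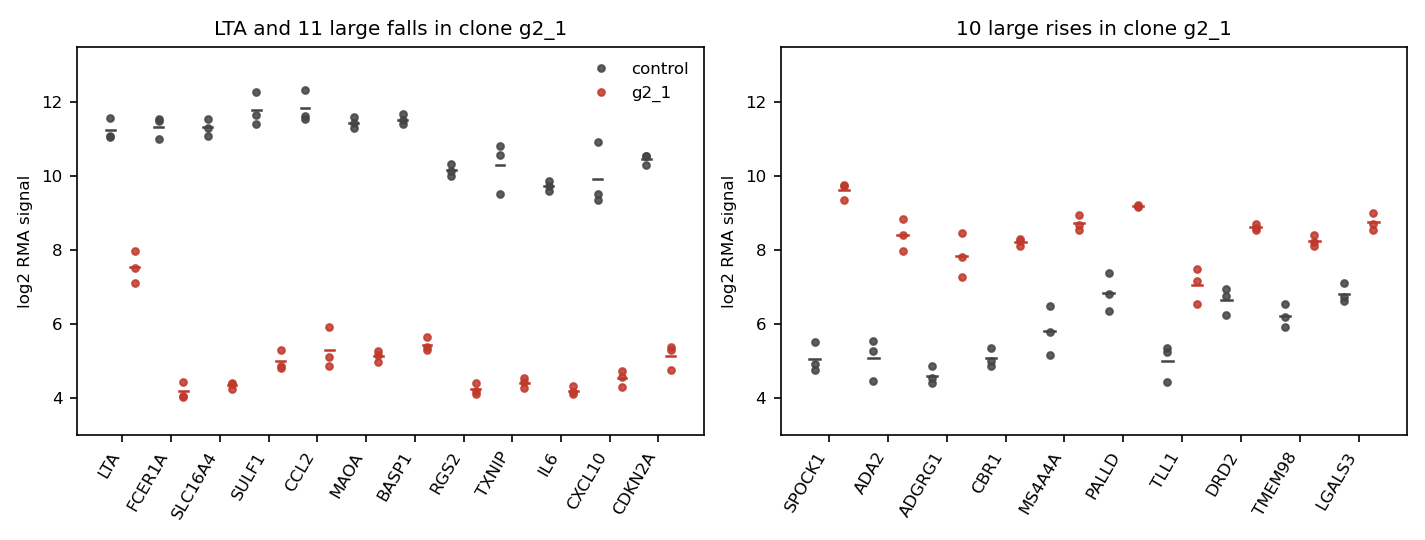
Log2 RMA signal (vertical) of LTA and 11 large falls (left) and of 10 large rises (right) on the 3 control arrays (grey) and the 3 arrays of clone g2_1 (red), with a short line at each group's mean. No g2_1 array reaches a control array in these genes, which for all but LTA was a condition of the choice. Most of the fallen genes lie near the floor of the array in g2_1, whereas LTA stays at 7.11 to 7.97.

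Among the TNF superfamily, ligands other than LTA showed 2 rises and 0 falls of 15 measured, against 6.19% of all transcript clusters that rose and 8.06% that fell, and 1 fell without control array 2. These shares, and 0.952% risen and 3.24% fallen by at least 2-fold, are the background for every list and family below. CD70, the ligand of CD27, was at 11.3, 11.53 and 11.46 in g2_1 and 9.61, 10.37 and 10.08 in control, and rose by 1.41 (adjusted p = 0.00431). TNFSF10 (TRAIL), a ligand that triggers apoptosis through death receptors, was at 11.64, 11.95 and 11.73 against 10.67, 10.75 and 10.88, and rose by 1.01 (adjusted p = 0.00044). Every g2_1 array of both ligands was above every control array. TNFSF14 (LIGHT), which shares the lymphotoxin beta receptor, was at 6.9, 6.75 and 6.48 against 8.19, 7.01 and 7.17 and did not pass (-0.75, adjusted p = 0.0964).

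Of 24 measured receptors of the family, 3 rose and 3 fell, with a median of -0.03 against 0.03 over all transcript clusters. CD40, the receptor of T cell help, was at 5.21, 4.91 and 4.88 in g2_1 and 10.53, 9.22 and 9.36 in control. It fell by 4.7 (SE 0.28, adjusted p = 8.9e-07), with control array 1 the highest. CD27, the receptor of CD70, was at 4.54, 4.69 and 4.88 against 6.54, 5.71 and 5.33 and fell by 1.16. So CD70 and its receptor changed in opposite directions on the same arrays. TNFRSF14, which binds TNFSF14 and lymphotoxin alpha, fell by 0.5. TNFRSF8 (CD30), a defining receptor of Hodgkin cells, was at 12.01, 11.79 and 11.88 against 11.25, 10.91 and 11.16 and rose by 0.79, and the TRAIL receptor gene TNFRSF10A rose by 0.49. FAS, the receptor of FASLG, had a value of -0.41 and did not pass (adjusted p = 0.161).

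Of 31 measured NF-kB subunits, kinases and inhibitors, 9 fell and 2 rose, with a median of -0.13. The number that fell was 5 without g2_1 array 3, 6 without g2_1 array 1 or control array 1, and 7 or 8 without another array, and after centring it was 6, with 7 rises. The rises numbered 1 without g2_1 array 2 or 3. REL, the c-Rel subunit, was at 7.35, 7.43 and 7.54 in g2_1 and 9.73, 9.0 and 9.23 in control, and fell by 1.88 (SE 0.17, adjusted p = 2.5e-05). NFKB1, the precursor of p50, was at 8.98, 9.12 and 9.14 against 10.1, 9.67 and 10.07 and fell by 0.87. For REL and NFKB1 the groups were apart on all arrays. RBCK1 and OTULIN, which build and remove linear ubiquitin chains, fell, with log2 fold changes of -0.67 and -0.51. TRAF1, an adaptor of TNF receptors, was at 9.48, 9.7 and 9.56 against 8.48, 8.84 and 8.53 and rose by 0.96 (adjusted p = 0.00078). TNFAIP3 (A20), the inhibitor that edits ubiquitin chains, was at 11.16, 11.81 and 12.01 against 11.2, 11.2 and 11.42, with overlapping groups, and did not pass (adjusted p = 0.419).

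Among 49 measured NF-kB target genes 17 fell and 5 rose, and 12 of the falls were at least 2-fold. The falls numbered 15 to 17, and those of at least 2-fold 12 to 14, with any 1 of the 6 arrays left out. The rises numbered 2 without g2_1 array 2, g2_1 array 3 or control array 2, and 8 after centring. The list's median was -0.07 and its mean -0.93. IL6, a cytokine that acts on the cell itself and on its neighbours, was at 4.15, 4.11 and 4.33 in g2_1 and 9.59, 9.73 and 9.87 in control, and was 46.3-fold lower (SE 0.11 in log2, adjusted p = 3e-10). CXCL10, a chemokine for activated T cells, was at 4.58, 4.29 and 4.73 against 10.92, 9.35 and 9.52. CD44, the hyaluronan receptor, was at 5.51, 5.52 and 5.43 against 10.76, 10.33 and 10.35. All g2_1 arrays of these 3 genes were low, and control array 1 was the highest for CXCL10 and CD44. CD80, a costimulatory ligand for T cells, was at 5.91, 5.87 and 5.99 against 9.79, 9.02 and 9.81 and fell by 3.62. IL2RA (CD25), the alpha chain of the interleukin-2 receptor, was at 12.41, 12.68 and 12.65 against 11.32, 11.39 and 11.67 and rose by 1.12 (adjusted p = 0.0003). CCR7, a chemokine receptor, was at 13.22, 13.39 and 13.29 against 13.24, 13.32 and 13.23, and its value of 0.04 did not pass.

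The promoters of IL6 and CXCL10, with that of the interferon-stimulated gene IFI44L, are printed. These genes belong to lists defined by transcription factors, fell by at least 2 log2 units and hold a motif match. A match was thus a condition of the choice. BCL2A1, MX1 and VCAM1 also met these conditions and are not printed. Each is the stretch of 250 bases before the transcription start in RefSeq (GRCh38.p14), 5′ to 3′ on the gene's strand. Capitals mark matches to a kappa B motif, spelled GGG, any 3 bases and TTCC, or to an interferon-stimulated response element (ISRE), spelled GAAA, any 2 bases and GAAA, on either strand.
IL6, chr7:22726950-22727199 on the plus strand: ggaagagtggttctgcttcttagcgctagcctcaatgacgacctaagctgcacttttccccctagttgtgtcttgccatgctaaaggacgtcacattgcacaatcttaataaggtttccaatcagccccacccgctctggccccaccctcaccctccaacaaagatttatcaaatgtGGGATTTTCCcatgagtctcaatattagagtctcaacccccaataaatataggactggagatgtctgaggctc
CXCL10, chr4:76023498-76023747 on the minus strand: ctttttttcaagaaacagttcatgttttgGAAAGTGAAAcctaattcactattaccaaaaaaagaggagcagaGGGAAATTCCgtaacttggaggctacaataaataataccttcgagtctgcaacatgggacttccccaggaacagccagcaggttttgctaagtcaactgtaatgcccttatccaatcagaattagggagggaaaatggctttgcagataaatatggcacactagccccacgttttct
IFI44L, chr1:78620198-78620447 on the plus strand: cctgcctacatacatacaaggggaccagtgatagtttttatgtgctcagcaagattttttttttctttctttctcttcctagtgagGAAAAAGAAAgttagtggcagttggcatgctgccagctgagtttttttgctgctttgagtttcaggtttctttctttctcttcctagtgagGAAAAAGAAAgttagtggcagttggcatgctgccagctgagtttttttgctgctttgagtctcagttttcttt
IL6 held a kappa B match from 73 to 64 bases before the start. CXCL10 held a kappa B match from 177 to 168 and an ISRE match from 221 to 212 bases before the start. IFI44L held the ISRE letters at 164 to 155 and again at 73 to 64 bases before the start. In these promoters no match overlapped another. Of 35114 RefSeq promoter windows of that length, 5.67% held the kappa B letters and 3.02% the ISRE letters on either strand. Of the 10 NF-kB targets that fell by at least 2 log2 units, 7 had an entry in the promoter table, with 9 promoters, and the kappa B letters stood in 2 of them and the ISRE letters in 3. Of the 3 interferon-stimulated genes that fell as far, 2 had an entry, with 4 promoters. The ISRE letters stood in 2 of these promoters and the kappa B letters in 1. A match is a description of the sequence.

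Among genes of JAK-STAT signalling, the pathway from cytokine receptors to STAT transcription factors, 8 of 34 fell and 7 rose, and centring raised the rises to 14. JAK2, a kinase of many cytokine receptors, was at 5.9, 6.13 and 6.25 in g2_1 and 8.82, 8.76 and 8.88 in control, and fell by 2.73 (adjusted p = 3.8e-06). PDCD1LG2 (PD-L2) was at 6.52, 7.0 and 6.52 against 9.89, 9.67 and 10.04, and CD274 (PD-L1) at 8.3, 7.73 and 8.05 against 10.14, 9.73 and 10.3. These ligands of the inhibitory receptor PD-1 fell, with log2 fold changes of -3.19 and -2.03, and all 3 genes lie close together on chromosome 9. FCER2 (CD23), the low-affinity IgE receptor and a target of STAT6, was at 6.7, 6.21 and 6.42 against 12.21, 12.11 and 12.01 and fell by 5.67. On the side that rose, the kinase gene PIM1 was at 11.57, 11.39 and 11.56 against 9.94, 10.14 and 10.58, and the feedback inhibitor gene CISH at 11.5, 11.59 and 11.46 against 10.68, 10.1 and 10.79. Both are known targets of STAT5, and rose by 1.29 and 0.99 (adjusted p = 0.00025 and 0.00154). JAK1 did not pass (0.29, adjusted p = 0.102).

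Cytokine receptor chains changed in both directions. Of 50 measured, 13 fell and 6 rose, and 8 falls and 5 rises were at least 2-fold. The falls numbered 9 to 13 with 1 array left out, and 9 without g2_1 array 1 or control array 2, and 11 rose after centring. IL13RA1, a chain of the interleukin-13 receptor, was at 4.3, 4.12 and 4.24 in g2_1 and 9.89, 9.25 and 9.92 in control. IL5RA, the interleukin-5 receptor chain, was at 5.48, 5.1 and 5.05 against 10.47, 10.07 and 10.65. IL1RL1 (ST2), the receptor of interleukin-33, was at 4.42, 4.34 and 4.66 against 8.71, 8.86 and 9.42. All 3 were low on every g2_1 array and high on every control array, and fell, with log2 fold changes of -5.47, -5.19 and -4.52 (SE 0.16, 0.16 and 0.18, adjusted p at most 4.5e-08). The interleukin-1 receptor genes IL1R1 and IL1R2 fell, with log2 fold changes of -3.84 and -3.39. IL1R2, a decoy receptor, was still at 9.13, 8.58 and 8.48 in g2_1 against 12.47, 11.91 and 11.98. CSF2RB, the beta chain that pairs with IL5RA, fell by 1.57. LIFR was at 8.19, 8.27 and 8.2 against 6.44, 6.34 and 6.65, and OSMR at 6.25, 6.81 and 6.56 against 4.94, 4.97 and 5.47. These chains, which pair with the IL6 signal transducer, were higher on every g2_1 array and rose by 1.74 and 1.41 (adjusted p = 1.6e-06 and 0.00035). TGFBR1, a receptor of transforming growth factor beta, was at 9.64, 9.75 and 9.69 against 8.25, 8.28 and 8.3 and rose by 1.42.

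Of 65 measured chemokines and cytokines, 8 fell (12.3%) and 6 rose (9.23%). Of these, 6 falls and 0 rises were at least 2-fold, against 3.24% and 0.952% of all transcript clusters. Beside CCL2, IL6 and CXCL10, the fallen genes were CCL3, at 5.44, 5.35 and 5.46 in g2_1 and 9.49, 8.92 and 8.6 in control, the macrophage growth factor gene CSF1, at 9.54, 9.43 and 9.48 against 12.4, 11.13 and 11.23, and CCL22, a chemokine for T helper cells. CCL3, CSF1 and CCL22 fell, with log2 fold changes of -3.59, -2.1 and -1.26, and control array 1 was the highest for CCL3 and CSF1. The rises were small, and their number was 2 without g2_1 array 2, control array 2 or control array 3 and 3 without g2_1 array 1 or 3, and 10 after centring. TGFB1 was at 10.8, 10.83 and 10.82 against 10.37, 10.43 and 10.14 and rose by 0.5. IFNG, the gene of interferon gamma, was at 6.88, 7.81 and 8.32 against 4.34, 6.52 and 6.79, with a wide spread in both groups and a value of 1.79 that did not pass (adjusted p = 0.0561). Of 25 chemokine receptors, 2 rose (8%) and 2 fell (8%), near the 6.19% and 8.06% of all transcript clusters. The falls numbered 0 without g2_1 array 1 or 2, and 1 without g2_1 array 3 or after centring. GPR183, a receptor of oxysterols that guides B cells, was at 11.29, 11.34 and 10.99 against 9.72, 10.22 and 10.0 and rose by 1.23.

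Interferon-stimulated genes also moved both ways, with 13 falls and 10 rises of 49, and 7 falls and 1 rise of at least 2-fold. The rises numbered 6 without g2_1 array 1, 2 or 3 or control array 2, 9 without control array 3, 14 without control array 1, and 18 after centring. GBP5, a guanylate-binding protein, was at 4.78, 4.58 and 4.56 in g2_1 and 7.4, 8.04 and 8.01 in control, and fell by 3.18 (adjusted p = 2.4e-07). MX1, an antiviral GTPase, was at 4.48, 4.72 and 4.91 against 9.54, 7.69 and 7.57. IFI44L was at 5.32, 4.95 and 4.68 against 9.08, 6.27 and 7.58. Control array 1 was far above the other 2 control arrays for MX1 and IFI44L, but none of the control arrays reached down to g2_1. They fell, with log2 fold changes of -3.56 and -2.66 (SE 0.41 and 0.54). GBP2 was at 11.39, 11.39 and 11.47 against 9.59, 10.36 and 10.94, and IFI6 at 10.73, 10.74 and 10.5 against 10.15, 9.48 and 9.64. These rose by 1.12 and 0.9, and HERC5, a ligase for ISG15, rose by 0.76 (adjusted p = 0.00078).

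Genes of MHC class II, which presents peptides to helper T cells, formed the list with the largest share of falls. Of 15 measured, 9 fell and 1 rose, against 8.06% and 6.19% of all transcript clusters, and the median was -0.73. HLA-DRA, the alpha chain of HLA-DR, was at 10.55, 11.25 and 11.4 in g2_1 and 11.71, 12.13 and 12.15 in control. CD74, the chaperone of class II, was at 11.25, 11.73 and 11.66 against 12.22, 12.45 and 12.49. HLA-DQA1 was at 7.65, 8.67 and 8.9 against 9.67, 9.99 and 10.16. Every g2_1 array lay below every control array in these genes, and array 1 was the lowest in both groups. They fell, with log2 fold changes of -0.93, -0.84 and -1.53 (adjusted p = 0.0208, 0.004 and 0.011). HLA-DRA no longer passed without g2_1 array 1 (adjusted p = 0.0653), control array 2 (0.0716) or control array 3 (0.0636). CTSS, the protease that cleaves CD74, fell by 2.16. CIITA, the master activator of class II, was at 7.79, 8.57 and 8.71 against 8.95, 9.3 and 9.0 and did not pass (-0.73, adjusted p = 0.107). With each array left out in turn the list's falls numbered 7 to 9, its single rise was lost without any g2_1 array, control array 1 or control array 3, and its median was -0.52 without g2_1 array 1 and -0.68 to -0.86 without another.

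In g3_4 the class II list had a median of -0.04. The labels do not say whether array numbers pair the samples. Arrays of the same number deviated together in the clones (correlations 0.435, 0.191 and 0.31), so the number was also tried as a block. With this inferred block, fitted to all 9 arrays, 4 of the 15 class II genes differed between the clones, against 0 without it. Under the same block 27 of all 20893 transcript clusters passed. HLA-DRB1 was at 8.36, 9.4 and 9.55 in g2_1 and 9.86, 10.49 and 10.55 in g3_4, lower on the g2_1 array of every number, and the difference was -1.2 (blocked limma adjusted p = 0.00417, 0.556 without the block). HLA-DRA was at 11.41, 11.93 and 12.02 in g3_4, with a difference of -0.72 (blocked 0.0456, otherwise 0.752), and CD74 at 11.99, 12.4 and 12.34, with a difference of -0.7 (blocked 0.0337, otherwise 0.328). The fourth gene, HLA-DQB1, named here after its values were seen, was at 7.13, 7.62 and 7.62 in g2_1 and 7.9, 8.23 and 8.49 in g3_4 (blocked 0.0367, otherwise 0.382). HLA-DR and HLA-DQ genes have close paralogs, and alleles of the line may bind probes unequally. In the MHC class I list 4 of 19 fell and 0 rose, and 2 rose after centring. ERAP2, which trims peptides, was at 5.56, 5.09 and 5.35 against 9.44, 8.43 and 8.01 and fell by 3.29, while the peptide transporter gene TAP1 fell by 0.76 and B2M did not pass (0.16).

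**Figure D3:**
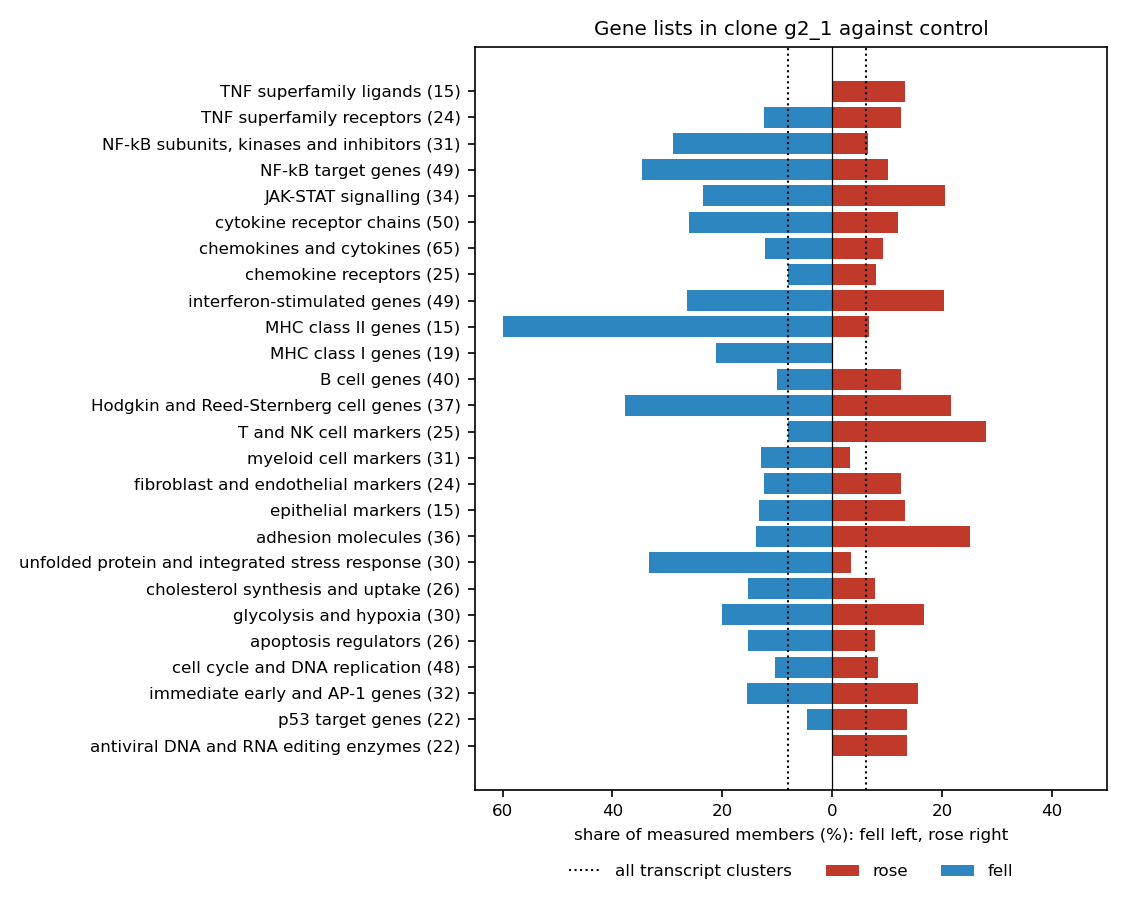
Share of the measured members of each gene list (number in brackets) that fell (blue, left) or rose (red, right) in clone g2_1 against control at an adjusted p under 0.05, with dotted lines at the shares of all transcript clusters (8.06% fell, 6.19% rose). MHC class II genes have the largest share of falls (9 of 15), followed by genes of Hodgkin and Reed-Sternberg cells (14 of 37) and NF-kB targets (17 of 49), and T and NK cell markers the largest share of rises (7 of 25).

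Of 37 genes typical of the tumour cells of Hodgkin lymphoma, 14 fell and 8 rose, and 10 of the falls were at least 2-fold. The falls numbered 13 or 14 with any 1 of the 6 arrays left out, and the rises 4 without g2_1 array 2 and 5 without g2_1 array 3. Beside IL13RA1, CD40, CD80 and PDCD1LG2, these included the receptor tyrosine kinase genes EPHB1, at 4.54, 4.6 and 4.88 in g2_1 and 8.97, 7.85 and 7.84 in control, and NTRK2, at 5.05, 4.76 and 4.64 against 7.24, 6.83 and 6.68. Both kinases were low on every g2_1 array, and fell, with log2 fold changes of -3.55 and -2.1 (adjusted p = 6.2e-06 and 2.4e-05). GZMB, a cytotoxic granule protease, rose by 0.94. Of 40 B cell genes, 5 rose (12.5%) and 4 fell (10%), with 3, 2 and 1 rises without g2_1 array 1, 2 and 3. POU2AF1, a coactivator of B cell transcription, was at 5.4, 5.7 and 5.38 against 7.48, 6.77 and 6.76 and fell by 1.51. The tetraspanin gene CD37 was at 9.24, 9.49 and 9.44 against 10.25, 10.73 and 10.49 and fell by 1.1, and PAX5, the factor that fixes B cell identity, fell by 0.79. LYN, a kinase of the B cell receptor, rose by 0.82 (adjusted p = 0.00032).

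Of 25 markers of T and NK cells 7 rose and 2 fell. With 1 array left out 6 or 7 rose. CD2, an adhesion receptor of T cells, was at 9.36, 9.54 and 9.31 in g2_1 and 7.0, 8.25 and 8.21 in control. PRF1 (perforin) was at 11.5, 11.66 and 11.68 against 10.24, 10.23 and 10.64. CD247, the zeta chain of the T cell receptor, was at 8.88, 9.18 and 8.85 against 7.15, 7.93 and 8.28. Each was higher on every g2_1 array, and they rose by 1.58, 1.24 and 1.18 (adjusted p = 0.00237, 5.7e-05 and 0.00703). CD3D, CD3E and CD3G, the defining chains of T cells, were near the floor in both groups. LEF1, a factor of T cell development, was at 4.79, 4.63 and 4.82 against 8.49, 8.52 and 7.76 and fell by 3.51, and GATA3, the factor of T helper type 2 cells, was at 8.61, 8.56 and 8.38 against 9.94, 10.04 and 9.87 and fell by 1.43. Of 31 myeloid genes, 4 fell and 1 rose, and 2 rose after centring. Apart from FCER1A these were the IgG receptor genes FCGR2A, at 5.84, 5.21 and 5.45 against 10.01, 9.51 and 10.42, and FCGR2B, at 4.67, 4.55 and 4.42 against 8.38, 7.86 and 7.79, and AIF1. FCGR2A and FCGR2B fell, with log2 fold changes of -4.48 and -3.46, and they are close paralogs. Fibroblast and endothelial markers (3 rose and 3 fell of 24) and epithelial markers (2 and 2 of 15, with 0 rises without g2_1 array 2 and 1 without g2_1 array 1 or 3 or control array 1 or 3) held FAP, which fell by 1.98, fibronectin (FN1), which rose by 1.02, and occludin (OCLN), which fell by 1.28, while COL1A1, COL1A2 and KRT8 did not pass.

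Of 36 adhesion molecules 9 rose and 5 fell, and the 2-fold falls (4) were deep. With 1 array left out the rises numbered 6 to 9, and were 6 without g2_1 array 2 or 3. Beside PECAM1 and CD44, ALCAM (CD166), the ligand of CD6, was at 4.69, 4.56 and 4.66 in g2_1 and 8.87, 8.67 and 8.67 in control. VCAM1, the ligand of the integrin alpha 4 beta 1, was at 4.73, 4.81 and 4.61 against 7.88, 7.56 and 7.87. Both were near the floor on every g2_1 array, and fell, with log2 fold changes of -4.1 and -3.05 (SE 0.1 and 0.12, adjusted p = 1.2e-09 and 3e-08). The integrin chain ITGAL, part of LFA-1, was at 6.76, 6.71 and 6.66 against 5.36, 5.38 and 5.6. ITGB7 was at 10.77, 10.77 and 10.84 against 9.13, 10.0 and 9.91, and ITGB1 at 10.73, 10.67 and 10.77 against 9.25, 9.88 and 10.23. These integrin chains were higher on all g2_1 arrays and rose by 1.26, 1.11 and 0.94. ICAM1, a ligand of LFA-1, did not pass (-0.56, adjusted p = 0.0922).

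In the list of stress responses (unfolded protein and integrated), 10 of 30 genes fell and 1 rose, with a median of -0.34. The falls numbered 7 to 12 with 1 array left out, and 12 without control array 1. The rises numbered 0 without g2_1 array 1 or 2 or control array 2, and 3 without control array 1 or after centring. PPP1R15A (GADD34), a feedback phosphatase subunit, was at 7.57, 7.54 and 7.63 in g2_1 and 8.43, 10.37 and 9.89 in control. TRIB3, a pseudokinase induced by ATF4, was at 7.86, 8.3 and 7.97 against 8.93, 10.48 and 10.34. CHAC1, which degrades glutathione, was at 6.85, 7.43 and 7.84 against 8.3, 10.35 and 9.46. For all 3 control array 1 was lower than the other 2 control arrays by over 1 log2 unit, yet above every g2_1 array. They fell, with log2 fold changes of -1.98, -1.87 and -2.0 (adjusted p = 0.00416, 0.00317 and 0.00937). SHMT2, a mitochondrial enzyme of serine and one-carbon metabolism, varied less, at 11.92, 12.1 and 11.96 against 13.06, 13.06 and 12.86, and fell by 1.0. PSAT1, of serine synthesis, fell by 0.88, and ATF4 itself did not pass (-0.38, adjusted p = 0.187).

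Of 26 genes of cholesterol synthesis and uptake, 4 fell and 2 rose, and 4 rose without control array 1. SC5D, a late enzyme of the pathway, was at 4.21, 3.91 and 4.05 in g2_1 and 7.55, 7.41 and 6.62 in control and fell by 3.14, and CYP51A1 fell by 1.35. Of 30 genes of glycolysis and hypoxia, 6 fell and 5 rose. ALDOC, an aldolase, was at 6.22, 6.16 and 6.49 against 9.71, 8.68 and 8.53, and the phosphofructokinase gene PFKP at 7.43, 7.62 and 7.71 against 10.47, 9.31 and 8.98. They fell, with log2 fold changes of -2.68 and -2.0, and control array 1 was the highest for each. The rises were all under 2-fold and numbered 1 without any 1 of the g2_1 arrays and 2 without control array 3. GAPDH and ENO1 did not pass (0.02 and -0.02). Among 26 apoptosis regulators 4 fell and 2 rose. BCL2L11 (BIM), which triggers apoptosis, was at 4.92, 4.48 and 4.78 against 9.11, 8.5 and 8.68. PMAIP1 (NOXA), which does so too, was at 6.8, 7.62 and 7.89 against 9.65, 9.05 and 9.2. BCL2A1, which protects from apoptosis, was at 4.21, 4.16 and 4.26 against 7.09, 6.35 and 6.56. These and the protective BCL2L1 fell, with log2 fold changes of -4.04, -1.86, -2.46 and -1.22, so that genes of opposite action fell together, and these 4 falls held without any 1 of the 6 arrays, whereas the rises numbered 0 without g2_1 array 1 or 3 and 1 without g2_1 array 2. MCL1 did not pass (0.03).

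Of 48 genes of the cell cycle and DNA replication, 5 fell (10.4%) and 4 rose (8.33%), and 10 rose after centring. Among them CDKN2A was the 1 fall of at least 2-fold. The rises numbered 1 without g2_1 array 2 or control array 2 and 2 without g2_1 array 1 or 3, and the falls 3 without g2_1 array 1 or 2. RB1, which CDKN2A keeps active through CDK4 and CDK6, was at 9.45, 9.3 and 9.46 in g2_1 and 10.1, 10.09 and 10.2 in control and fell by 0.73. CDK4 fell by 0.57, and CDK6 was at 9.56, 9.66 and 9.68 against 8.98, 9.09 and 9.2 and rose by 0.54. No array of g2_1 overlapped the control for these 3 genes. Of 32 immediate early and AP-1 genes 5 fell and 5 rose, with 3 falls without g2_1 array 3, 2 rises without g2_1 array 2 and 3 rises without g2_1 array 1 or control array 3. SGK1, a kinase induced by growth factors, was at 5.42, 4.97 and 5.74 against 9.42, 8.65 and 8.6 and fell by 3.51. The AP-1 factor BATF was at 9.86, 10.01 and 9.95 against 10.74, 10.71 and 10.58 and fell by 0.74, and EGR1 fell by 1.71. IER3 was at 12.08, 11.86 and 11.58 against 11.37, 10.74 and 10.74 and rose by 0.89. Of 22 p53 targets 3 rose and 1 fell, with 1 rise without g2_1 array 2, 6 rises without control array 3, 5 rises after centring and 4 falls without control array 1, and CDKN1A (p21) did not pass (0.86, adjusted p = 0.0515). Of 22 antiviral DNA and RNA editing enzymes and sensors 3 rose and 0 fell, and 5 rose without control array 3 and 7 after centring. APOBEC3H, a cytidine deaminase, was at 7.34, 7.23 and 7.17 against 5.91, 6.45 and 6.23 and rose by 1.05, beside APOBEC3G (0.7) and the DNA sensor adaptor STING1 (0.56).

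Genes were also grouped into families by symbol. Of 20 regulators of G protein signalling, proteins that switch off G protein alpha subunits, 5 fell and 0 rose, and 1 rose without control array 1 or after centring. RGS2 was at 4.41, 4.18 and 4.12 in g2_1 and 10.34, 10.15 and 10.02 in control. RGS1 was at 4.35, 4.36 and 4.22 against 10.13, 9.69 and 9.62. RGS13 was at 4.22, 4.43 and 4.41 against 8.72, 7.39 and 8.05. The g2_1 arrays were near the floor for all 3, and they fell, with log2 fold changes of -5.93, -5.5 and -3.7 (adjusted p = 1.2e-09, 1.2e-09 and 3.3e-06). Of 16 glutathione transferases 4 fell and 2 rose. GSTM1 was at 6.46, 6.17 and 6.12 against 11.45, 10.9 and 10.89, and GSTM2 at 6.83, 6.71 and 6.51 against 10.91, 10.12 and 10.18. The GSTM genes are a cluster of near-identical copies on chromosome 1, so the falls of GSTM1, GSTM2 and GSTM4 (-4.83, -3.72 and -2.84) are not independent measurements. GSTO1, of another class, rose by 0.98. Of 9 UDP-glucuronosyltransferases, which conjugate steroids and drugs, UGT2B17 and UGT2B15 fell, with log2 fold changes of -4.5 and -3.5, again close paralogs. Of 51 cytochromes P450, 6 fell and 1 rose (2 without control array 1, 4 after centring), led by CYP1B1, at 4.64, 4.17 and 4.64 against 9.44, 8.24 and 8.24, which fell by 4.16.

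Zinc finger genes of the ZNF series, mostly transcriptional repressors, fell in 69 of 492 cases (14%) and rose in 13 (2.64%), with a median of -0.05. The falls numbered 44 without g2_1 array 1 and 50 after centring. The rises numbered 7, 8 and 8 without g2_1 array 1, g2_1 array 3 and control array 2, and 25 after centring. ZNF532 fell by 3.24 and ZNF382 by 2.91. ZNF382 was at 4.31, 4.33 and 4.32 in g2_1 and 7.35, 7.06 and 7.27 in control, with little spread. Of 25 HOX genes 6 fell and 0 rose (1 after centring), led by HOXD11, HOXD13 and HOXD10 of 1 cluster, which fell, with log2 fold changes of -1.97, -1.84 and -1.17. Of 15 cathepsins 5 rose and 4 fell, with 3 rises without g2_1 array 1 or 2. CTSV was at 8.82, 8.89 and 8.75 against 7.14, 6.87 and 6.79 and rose by 1.89 (adjusted p = 1.4e-06), and CTSH, another lysosomal protease, was at 4.17, 4.34 and 4.22 against 7.24, 6.49 and 5.9 and fell by 2.3. Of 41 genes of respiratory complex I and its assembly 9 rose and 2 fell, all under 2-fold. After centring 19 rose and 1 fell. The rises numbered 12 without control array 1, 2 without g2_1 array 1, 3 without g2_1 array 2, g2_1 array 3 or control array 2, and 5 without control array 3, and the falls 1 without g2_1 array 2 or control array 2. NDUFB3, a subunit of the complex, was at 10.91, 10.88 and 10.74 against 10.0, 9.75 and 9.99 and rose by 0.93. Solute carriers (24 rose and 25 fell of 361) and olfactory receptors (3 and 0 of 349) rose and fell in at most 6.93% of cases. After centring 39 solute carriers and 8 olfactory receptors rose, and 13 and 12 solute carriers rose without g2_1 array 2 and 3. Of the olfactory receptors, OR3A1 was at 8.79, 8.75 and 8.55 against 7.12, 7.04 and 7.06 and rose by 1.62.

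The calls were spread unevenly over the chromosomes. Chromosome 9 had the largest share of called falls, 69 of 822 transcript clusters (8.39%), against 3.24% of all, and chromosome 3 the largest share of called rises, 25 of 1136 (2.2%), against 0.952%. Neighbourhoods of 41 expressed genes were taken in the RefSeq order of genes. The median fold change of such a neighbourhood was 0.04 in the middle of all 8307, and -0.37 and 0.42 at the 1st and 99th percentile. The lowest was centred on ARHGEF39 on chromosome 9, with a median of -0.88, where 32 of 41 genes fell and 0 rose. PHF24 and SHB had the largest changes there, -2.96 and -1.9. The one centred on PLIN2, also on chromosome 9, had a median of -0.84, with 33 falls and 0 rises. It holds CDKN2A and PDCD1LG2, so their falls stand among falls of their neighbours. In g3_4 these medians were -0.83 and -0.81.

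On chromosome 6 the neighbourhood of HLA-DQA1 had a median of -0.37 in g2_1 (-0.26 after centring) and -0.23 in g3_4. The median difference between the clones was -0.05 there. This neighbourhood held 20 falls and 2 rises in g2_1 and 10 falls and 3 rises in g3_4. In g3_4, 8.16% of all transcript clusters fell and 6.12% rose against control. C4A, a complement gene with a near-identical copy, was at 5.64, 5.95 and 5.96 in g2_1 and 9.09, 10.25 and 10.01 in control and fell by 3.93. On chromosome 2 the neighbourhood of MDH1 had a median of -0.36 in g2_1 and -0.37 in g3_4. In g2_1 this neighbourhood had a median of only -0.18 with 10 neighbours on each side and -0.25 after centring. It holds BCL11A, a transcription factor of B cells, at 5.36, 4.77 and 4.66 against 10.32, 9.29 and 9.34, which fell by 4.72. Chromosome 3 held the highest. The neighbourhood of XXYLT1 had a median of 0.57 with 23 rises and 0 falls, and that of DNAJC19 a median of 0.51 with 21 rises and 0 falls. TNIK, a kinase, was at 6.79, 7.38 and 7.15 against 5.01, 5.16 and 5.99 and rose by 1.72, and NCEH1, a cholesteryl ester hydrolase, at 9.18, 9.56 and 9.38 against 7.88, 7.73 and 7.62, rose by 1.63. In g3_4 the medians of these 2 neighbourhoods were 0.26 and 0.15, with 10 and 7 rises. Whether the shift itself differs between the clones was not tested. A second region of chromosome 2, around SGO2, had a median of 0.47 in g2_1 and 0.43 in g3_4. No DNA was measured, so copy number was not tested.

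**Figure D4:**
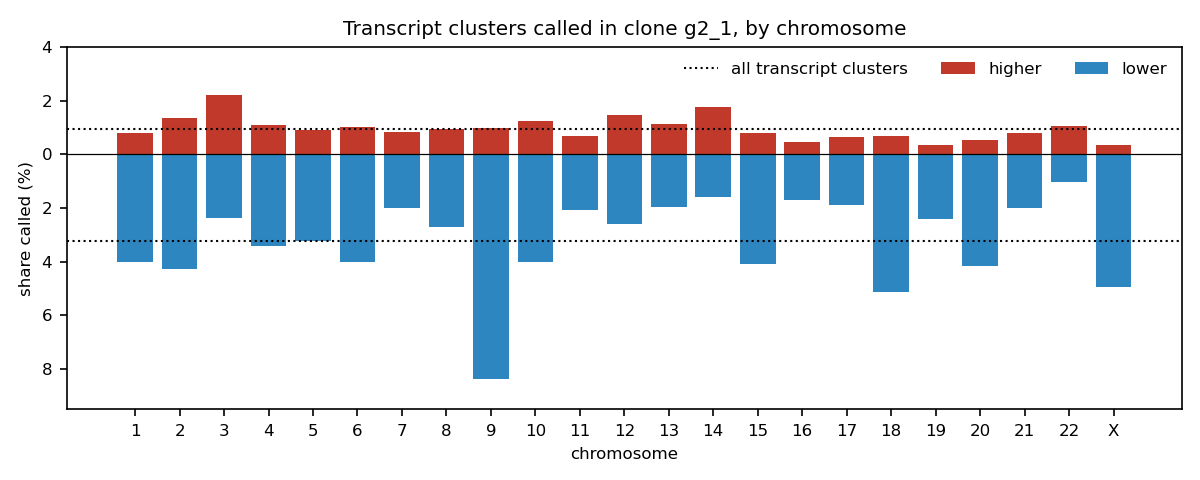
Share of transcript clusters called higher (red, up) or lower (blue, down) in clone g2_1 against control, by chromosome, with dotted lines at the shares over all transcript clusters (0.952% and 3.24%). Chromosome 9 has the largest share of falls (8.39%) and chromosome 3 the largest share of rises (2.2%).

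Clone g2_1 differed from g3_4 in few genes. Of 20893 transcript clusters 9 were called between the clones (0.0431%), 4 higher (0.0191%) and 5 lower (0.0239%) in g2_1. Without the limit on the fold 11 passed (0.0526%), of which 7 were lower (0.0335%). With the array number as a block 15 were called, including all 9. The number called was 4 without g2_1 array 2 and 5 without g3_4 array 3. Both clones are compared with the same control arrays, so their values are set side by side. Lower in g2_1 were ATP12A, a proton pump, at 5.78, 5.6 and 5.69 in g2_1, 8.2, 8.4 and 8.34 in g3_4 and 5.22, 4.65 and 5.04 in control, and RBPMS, an RNA-binding protein, at 6.31, 6.31 and 6.12, 8.35, 8.61 and 8.2 and 4.5, 4.43 and 4.57. LRRN3, a neuronal leucine-rich repeat protein, was at 7.27, 7.95 and 8.31 in g2_1, 10.51, 10.27 and 10.57 in g3_4 and 6.84, 6.66 and 6.43 in control. In these 3 genes g2_1 lay between control and g3_4, without overlap. The differences between the clones were -2.62, -2.14 and -2.61 (adjusted p = 2.7e-05, 2.7e-05 and 0.00109). MAOA went the other way, since it was at 7.24, 6.89 and 6.9 in g3_4 and thus fell further in g2_1, with a difference of -1.87 (adjusted p = 0.00018). The calls of these 4 genes held without any 1 array of the clones. CNTNAP3P2, a pseudogene with near-identical relatives, NBAS and EIPR1 had differences of -1.36, -0.93 and -0.82 (adjusted p = 0.0282, 0.0282 and 0.0334). CNTNAP3P2 changed more than 2-fold and NBAS and EIPR1 less. These genes no longer passed on leaving out most single arrays: CNTNAP3P2 without any array of the clones but g2_1 array 3 (adjusted p 0.107 to 0.194), NBAS without any 1 of the 6 (0.117 to 0.169), and EIPR1 without any but g2_1 array 1 (0.136 to 0.244).

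Higher in g2_1 were CD70, HBEGF, GNB4 and IL7R. CD70 was at 11.3, 11.53 and 11.46 in g2_1, 8.41, 9.4 and 9.43 in g3_4 and 9.61, 10.37 and 10.08 in control, above control in g2_1 and below it in g3_4. The difference was 2.35 (SE 0.26, adjusted p = 0.0115), and the call was lost without g2_1 array 2 (adjusted p = 0.135) or g2_1 array 3 (0.0743). HBEGF, a ligand of the EGF receptor, was at 7.27, 7.66 and 6.93 in g2_1, 5.66, 5.78 and 5.88 in g3_4 and 5.53, 4.94 and 5.55 in control, with a difference of 1.51, and GNB4, a G protein beta subunit, had a difference of 1.11. HBEGF was lost without any array of the clones but g2_1 array 3 (adjusted p 0.136 to 0.187), and GNB4 without any 1 of the 6 (0.13 to 0.318). The interleukin-7 receptor gene IL7R, named after its values were seen because it missed the test against control (0.83, adjusted p = 0.0825), was at 8.25, 7.44 and 7.07 in g2_1, 5.87, 5.11 and 5.15 in g3_4 and 6.99, 6.66 and 6.63 in control, with a difference of 2.21 (adjusted p = 0.0282). That call was lost without g2_1 array 2 (adjusted p = 0.166), g3_4 array 2 (0.164) or g3_4 array 3 (0.187). The control lay between the clones for CD70 and IL7R. With the block, IL1R2 was called as well, at 10.06, 9.87 and 9.81 in g3_4 with a difference of -1.18 (blocked adjusted p = 0.00417, otherwise 0.0872), and so was TRIM29, at 6.52, 7.3 and 7.32 in g2_1, 7.94, 8.28 and 8.47 in g3_4 and 5.7, 5.82 and 5.76 in control (blocked 0.0262, otherwise 0.119).

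**Figure D5:**
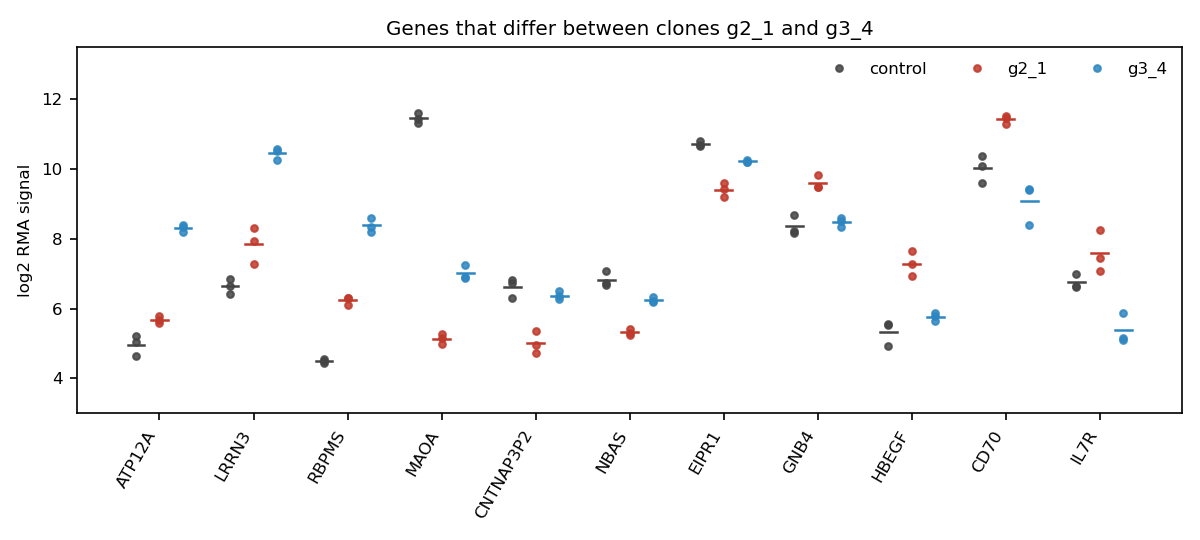
Log2 RMA signal (vertical) of the 11 genes that passed the test between clones g2_1 and g3_4, on the 3 arrays each of control (grey), g2_1 (red) and g3_4 (blue), with a short line at each group's mean. ATP12A, RBPMS and LRRN3 rise further in g3_4, MAOA falls further in g2_1, and CD70 is above control in g2_1 (11.30 to 11.53) and below it in g3_4.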

How the data were processed

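RNA of 9 samples, 3 per group, was hybridised to Clariom S arrays, which carry 1 signal per transcript cluster. The deposited values are log2 signals that the authors made by RMA (Transcriptome Analysis Console 4.0 is named in the submitters' processing notes). They have 2 decimals and no detection calls, and the genome build is not given in the sources used here. The number of arrays limits the precision.

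Of the rows, 20893 were tested and 555 with IDs of unmapped clusters were left out. A table of the platform's annotation named 17705 rows, and 3188 stayed unnamed. All 9 arrays entered 1 fit of limma 3.58.1 (R 4.3.3; lmFit, eBayes), with contrasts of g2_1 against control, g3_4 against control and g2_1 against g3_4. P-values were adjusted by the method of Benjamini and Hochberg over the 20893 rows. The fit was tested on simulated data. The threshold was an adjusted p of 0.05, with a log2 fold change of at least 1 for a call.

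The gene lists and families, and the genes described, were chosen with earlier results of these data known. The genes named are LTA, the 20 largest falls and 15 largest rises among calls whose arrays do not overlap, up to 10 genes in each direction that passed against both control and g3_4, and, per list, up to 6 passed genes in each direction by size and up to 4 that did not pass by highest mean. Families add up to 3 genes in each direction, and each neighbourhood its 2 genes of largest change. Other named genes are said to be so.

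Whether array numbers pair the samples was checked by the correlation of same-numbered arrays' deviations from their group means. Between the clones these were 0.435, 0.191 and 0.31, each above 0.1, so the number was also tried as a block. The block was fitted to all arrays, control included, although the arrays of g2_1 and control were not taken as paired. The blocked values for the clones thus also draw on the control arrays. The alternatives tried were the arrays in the fit, centring, filters on low values, array weights, the variance model, a test against the fold limit, the block, and leaving out each array.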

Additional observations from a re-analysis of the deposited data

Results flagged for a closer look

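The effect on 11 genes differed between the clones in a test of the difference itself (limma, adjusted p under 0.05). Those lower in g2_1 had differences of -2.62 for ATP12A, -2.61 for LRRN3, -2.14 for RBPMS, -1.87 for MAOA, -1.36 for CNTNAP3P2, -0.93 for NBAS and -0.82 for EIPR1 (log2). Those higher had differences of 2.35 for CD70, 2.21 for IL7R, 1.51 for HBEGF and 1.11 for GNB4. The number of arrays is 3 per clone. The arrays of the clones did not overlap in these 11 genes, but the genes were picked by a test on the same arrays, so this adds no support. Each clone is 1 line, so a difference between guides and a difference between single clones cannot be told apart.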

How the results depend on the processing

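The number called in g2_1 against control, 875, was 784 to 1022 without 1 array (153 to 279 higher, 631 to 743 lower). It was 527 (337 lower) among rows above the median level, where fewer rows are tested, 303 (23 higher, 280 lower) when the fold limit itself was tested, and 30 (6 higher, 24 lower) with unequal variances per gene. LTA kept -3.71 under unequal variances with an adjusted p of 0.0686, and lay between -3.92 and -3.49 without 1 array. Same-numbered arrays of g2_1 and control had correlations of 0.285, 0.0426 and 0.183, and array 2 of g2_1 was nearer to control array 3 (0.109), so they were not taken as paired, although the arrays numbered 1 also share an RNA integrity number of 10. The replicate block gave 884 calls (204 higher, 680 lower). Under it falls in the stress response list went from 10 to 15 and in MHC class II from 9 to 11, and rises went from 10 to 17 among interferon-stimulated genes, 3 to 8 among p53 targets, 4 to 7 in the cell cycle list, 2 to 4 among NF-kB subunits and 3 to 6 in the antiviral list. Between the clones, 9 calls (4 higher, 5 lower) became 18 (12 lower) in a fit of their 6 arrays, 21 (16 lower) with array weights, 15 (9 lower) with the replicate block, 21 (15 lower) without the arrays numbered 1, 2 (0 higher, 2 lower) in the test of the fold limit, and 4 to 9 (0 to 4 higher, 4 or 5 lower) without 1 array. Above the median level 2 were higher. With unequal variances 0 were called, with 1012 at an unadjusted p under 0.05, against 922 in limma. Of 344 named genes that passed against control, 85 no longer passed without some 1 array, and 0 changed direction in any alternative run. Of the same 344 genes, 331 no longer passed with unequal variances, and 41 no longer passed in the fit of only the 6 arrays compared. The cause of these shifts was not tested. A fall to the floor of the array is a lower bound.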
